A study of Mus musculus with 2 samples.

Results

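The 4 Hox gene clusters of the mouse held 5 of the 18737 Zfp217 peaks that the authors called in CCE embryonic stem cells, or 0.0267% of the list. HoxA held 3 peaks and HoxC held 2, whereas HoxB and HoxD held none. All 5 peaks were narrower than the median of the list, and both HoxC peaks lay at one edge of the interval. HoxB had no peak in 185 kb, beside 59 peaks (29.5 per Mb) in the 1 Mb on each side. Over chromosome 11 as a whole, however, 40.4% of windows of that length were empty. A peak was counted to a cluster when it overlapped, by at least 1 bp, one of 4 mm9 intervals: chromosome 6 from 52100000 to 52270000 for HoxA, chromosome 11 from 96050000 to 96235000 for HoxB, chromosome 15 from 102750000 to 102900000 for HoxC, and chromosome 2 from 74480000 to 74615000 for HoxD. Together the intervals span 640 kb. They were set by position and use no measured value.

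The list comes from ChIP-seq, in which DNA bound by a protein is pulled down with an antibody and regions rich in reads are reported as peaks. The series has 1 library precipitated with a Zfp217 antibody and 1 input library, both from the line CCE, which was kept undifferentiated without feeder cells in serum with leukemia inhibitory factor and received no treatment. The peaks carry positions but no height, fold enrichment or score, so read depth is unknown and nothing could be set against the input. With 1 immunoprecipitated library there is no spread between replicates, and no p-value is given. Exact 95% intervals are printed in its place. They take peaks as independent and cover counting error only, and each stands alone, with no adjustment for the number of clusters.

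Hox genes encode homeodomain transcription factors that give cells their position along the body axis. The order of genes along a cluster follows the order of the body regions they act in, and in embryonic stem cells the clusters are known as silent chromatin held by Polycomb proteins until differentiation. Zfp217 is the mouse counterpart of human ZNF217, a zinc finger protein that works with corepressors such as CoREST and CtBP. The profile asks where in the stem cell genome this protein is bound.

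By gene order in the RefSeq table of GRCm38.p6, used here for names and neighbours only, the clusters hold 39 Hox genes with no other protein-coding gene among them. HoxA has 11 and ends with Hoxa13, which acts in the distal limb. It is followed by Evx1, a related homeobox gene, and preceded by Skap2, which encodes an adaptor protein. HoxB has 10 genes, from Hoxb13 to the hindbrain gene Hoxb1, between Ttll6 and Skap1. HoxC has 9, from Hoxc13, known for its role in hair and nails, to Hoxc4, between Calcoco1 and Smug1. HoxD has 9 as well, from the digit gene Hoxd13 to Hoxd1, between Evx2 and Mtx2. Chromobox genes, whose HP1 proteins bind silent chromatin, are among the 3 nearest coding genes on one side of HoxA (Cbx3), HoxB (Cbx1) and HoxC (Cbx5). The clusters also hold 6 microRNA genes, among them Mir196b in HoxA, Mir10a in HoxB and Mir10b in HoxD. The gene order is taken to be the same in mm9. No mm9 annotation was used, so no peak below is assigned to a gene, promoter, exon or intron.

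The bases under the 5 peaks were not read here for want of the mm9 genome. Sequence could be shown for promoters, which RefSeq gives by gene symbol in GRCm38.p6 as 300 bases around a start (250 before and 50 after). Of the 39 Hox genes, 22 had at least 1 such window, in 24 windows. Human ZNF217 is known to recognise a short core, searched here as CAGAAC and CAGAAT on both strands. The core was found in 5 of the 24 windows (20.8%), compared with 10258 of all 32851 promoter windows (31.2%). This difference rests on few windows and was not tested, nor was the base content of the windows taken into account. HoxD, which had no peak, held 4 of those 5 among its 10 windows, and HoxA held 1 among its 10. The 3 windows of HoxB and the 1 of HoxC had none. The 7 matches are printed because they are the places in these 24 windows where the known core occurs. Hox genes without a window were not searched. Windows were available for 3 of 10 HoxB genes and 1 of 9 HoxC genes, so the clusters cannot be compared by these matches. Each is shown as 30 bases in the direction of its gene, with the core in capitals, and ATTCTG and GTTCTG are the core on the opposite strand. The number after each name is the position of the first capital from the start site.
Hoxd11, first window, -46: aaagctttcttgCAGAACtgtagtggtaat
Hoxd11, first window, -15: aatgaaatgactCAGAATcccttccccagt
Hoxd11, second window, -77: cataattaccacCAGAATcaatcaagatga
Hoxd3, -62: atttgcccccgcATTCTGctttcccagagc
Hoxd4, -132: gacctctctcgcATTCTGgatatttggaac
Hoxd4, -39: aggttatttatgGTTCTGcagagccgggac
Hoxa9, -145: gggatctctgttGTTCTGtttcaaggataa
A match of letters is a description of these windows and not a bound site. The cluster that held 6 of the 7 matches had no peak anywhere in its interval.

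HoxA was the cluster with the most peaks. Its first peak, at 52108412 to 52108605, was 194 bp wide and lay 8.41 kb inside the interval, on the Skap2 side. The second, at 52141879 to 52142138, was 260 bp wide and followed after 33.3 kb. The third, at 52210698 to 52210854, was 157 bp wide, the smallest width in the list and one it shared with 681 other peaks. The midpoints thus lay at 5%, 24.7% and 65.2% of the length of the interval. None was close enough to another to be merged within 1000 bp. Where the Hoxa genes lie within the interval was not read, so these are not positions along the genes. The remaining 59.1 kb of the interval, on the Evx1 side, held no peak. It opened a stretch of 379.2 kb without one, which ran to 52590089.

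HoxC held its peaks at the end of the interval where the table lists Hoxc13. The first, at 102751015 to 102751300, was 286 bp wide and began 1.01 kb inside the interval. The second, at 102761885 to 102762092, was 208 bp wide and lay 10.6 kb further in. Both midpoints fell in the first 7.99% of the interval. The other 91.9% was part of a stretch of 231.4 kb without a peak, up to 102993535. On the outer side the nearest peak was 197.1 kb before the interval, at 102552703 to 102552948, so the pair stood alone between long empty stretches. Because the pair is so near the edge, the count depends on where the interval is drawn. With bounds moved in by 20 kb, HoxC held 0 peaks.

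HoxB lay whole within an empty stretch of 339.5 kb, from 95986160 to 96325662. The last peak before it was 201 bp wide and ended 63.8 kb from the interval. The first peak after it was 299 bp wide and began 90.7 kb beyond. On the Ttll6 side the next peak came after 12.5 kb, but on the Skap1 side a further 232.3 kb held none, so that there were 2 peaks in 584.8 kb. This stretch was the longest of the 60 that lie in or reach into the interval and its 1 Mb flanks.

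HoxD also lay whole within an empty stretch, of 246.4 kb from 74417309 to 74663682. Single peaks bounded it, one of 494 bp that ended 62.7 kb before the interval and one of 372 bp that began 48.7 kb after it. Beyond them came a further 667.3 kb without a peak on the Evx2 side and 807.7 kb on the Mtx2 side. These 2 peaks were thus the only ones in 1722.2 kb. HoxD is known to be flanked by broad stretches with few genes that regulate it from afar. Gene density was not read here, and a link between it and the number of peaks was not tested. The sparse surroundings ended within the flanks, which had 16 peaks in all.

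**Figure D1:**
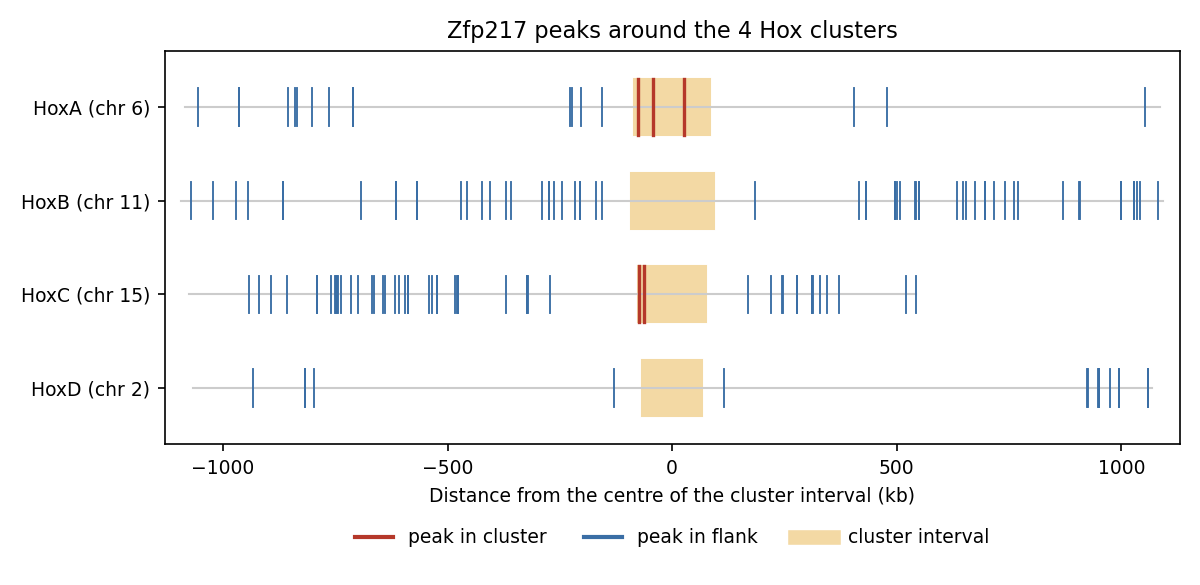
Positions of Zfp217 peaks around each Hox cluster, as distance in kb from the centre of the interval. Each upright line is 1 peak (red inside the cluster, blue up to 1 Mb on each side), the shaded box is the cluster, and the grey line of HoxC stops at the last peak of chromosome 15. HoxB and HoxD are empty, with 59 peaks around HoxB and 16 around HoxD.

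The clusters were next compared with their surroundings. The flanks were the 1 Mb on each side, except that chromosome 15 has its last peak 468.5 kb after HoxC, where that flank was ended. HoxA had 17.6 peaks per Mb (95% Poisson interval 3.64 to 51.6), compared with 8.5 in its flanks (17 peaks), of which 14 lay before it and 3 after. The ratio was 2.08, with an interval of 0.390 to 7.18, so no difference was detectable. HoxB had 0 peaks per Mb, and a count of 0 allows up to 19.9. Its flanks had 29.5 peaks per Mb (22.5 to 38.1), with 27 peaks before and 32 after. The upper limit of this ratio was 0.698, so HoxB was below its flanks beyond counting error if peaks are independent. Windows of 185 kb on chromosome 11 held 2.28 peaks on average, yet 40.4% of them were empty, so peaks were clustered. The interval is therefore likely too narrow. Its upper limit was 0.903 after merging peaks within 1000 bp. Among the wider 50% of peaks it was 1.88, and HoxB and its flanks no longer differed beyond counting error. HoxB was the only one of the 4 clusters whose interval excluded 1.

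HoxC had 13.3 peaks per Mb (1.61 to 48.2), compared with 35.4 in its flanks (52 peaks). The ratio of 0.377 had an interval from 0.0444 to 1.43, which did not separate them. HoxD had 0 peaks per Mb, which allows up to 27.3, and its flanks had 8 (16 peaks). The ratio could be as high as 3.84, so that 135 kb was too short for an absence of peaks to be told from the density around it. Counts and lengths were then summed over the 4 loci. This gave 7.81 peaks per Mb for the clusters and 19.3 for the flanks, a ratio of 0.405 (0.130 to 0.968). The sums mix loci of unlike density, so this joint ratio and its interval do not match each cluster to its own flanks. At the density of its own flanks, each cluster would hold 1.45 peaks (HoxA), 5.46 (HoxB), 5.31 (HoxC) and 1.08 (HoxD), or 13.3 in all where 5 were found. The joint interval reached 1 in 4 of 7 alternatives, with an upper limit of 1.25 when peaks within 1000 bp were merged, and is therefore not firm.

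The rest of each chromosome gave a different picture, since the flanks of HoxB and HoxC were themselves rich in peaks. The flanks of HoxC had 5.25 times the density of chromosome 15 outside cluster and flanks (3.88 to 6.97), and those of HoxB 2.45 times that of chromosome 11 (1.85 to 3.18). Around HoxA and HoxD the ratios were 1.34 (0.775 to 2.15) and 1.05 (0.601 to 1.72). Against the rest of its chromosome, HoxA was at 2.76 times the density (0.569 to 8.10) and HoxC at 1.86 times (0.225 to 6.76). HoxB was at 0, with an upper limit of 1.62, and HoxD at 0, with an upper limit of 3.61. None of the 4 intervals excluded 1. Chromosome densities of 6.39, 12.3, 7.15 and 7.59 peaks per Mb for HoxA to HoxD would give 5.46 peaks in all, beside the 5 found. The joint ratio, from summed counts and lengths and so not matched by cluster, was 0.95 (0.308 to 2.22).

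**Figure D2:**
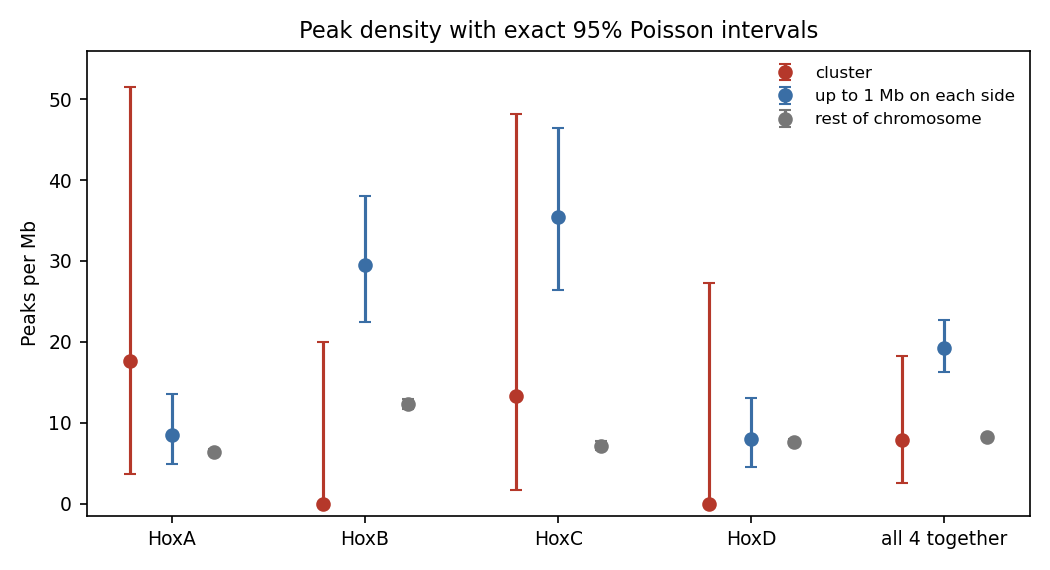
Peaks per Mb in each Hox cluster (red), in up to 1 Mb on each side (blue) and in the rest of its chromosome (grey), with exact 95% Poisson intervals as bars. HoxB, at 0 with an upper limit of 19.9, lies below its flanks at 29.5, while every cluster interval includes the density of the rest of its chromosome.

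Windows of the same length show how common these counts were. Laid outward from HoxB, the 10 windows of 185 kb in its flanks held from 1 to 9 peaks, with a median of 5, and not 1 of them was empty. This depends on where the windows fall, since the empty 232.3 kb on the Skap1 side would hold a whole window of that length. Over the whole of chromosome 11, however, 40.4% of 658 such windows held no peak, or 38.9% without the 16 windows before its first peak, which may be unsequenced. For HoxD, 9 of 14 flank windows of 135 kb were empty, as were 56.7% of the 1345 windows of chromosome 2. For HoxA, 5 of 10 flank windows of 170 kb were empty and 8 held 3 peaks or fewer. On chromosome 6, 13.8% of 879 windows held at least 3 peaks and 92% held no more than 3. For HoxC, 1 of 9 flank windows of 150 kb was empty and 3 held 2 peaks or fewer. On chromosome 15, 22.9% of 689 windows held at least 2 peaks and 85.5% no more than 2. The count of HoxA was thus on the high side for its chromosome, and that of HoxB was common on chromosome 11 as a whole.

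**Figure D3:**
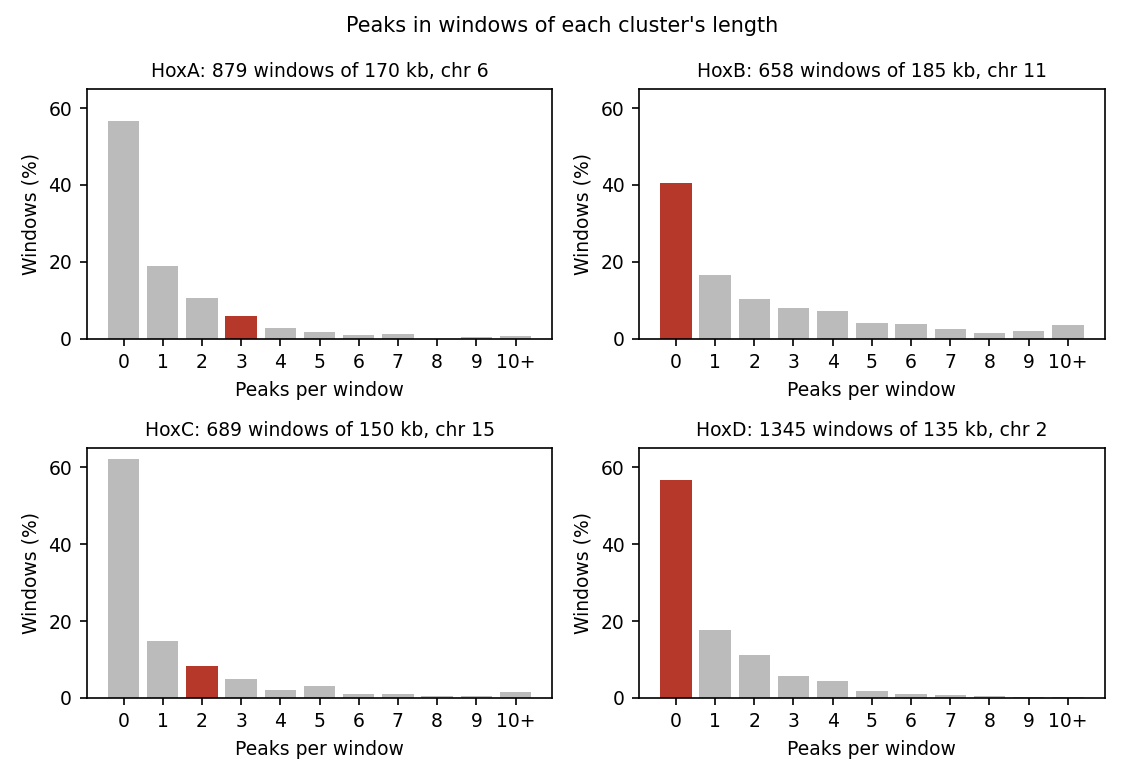
Share of windows (percent) with each number of peaks, for windows of the cluster's length laid over its chromosome. The red bar is the number found in the cluster: 3 for HoxA, 0 for HoxB, 2 for HoxC and 0 for HoxD, and an empty window was the most frequent kind on all 4 chromosomes.

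The empty stretches were read in the same way. On chromosome 11, 4.6% of the 1499 stretches between neighbouring peaks were at least as long as the one around HoxB, which was 14.8 times the median of 22.9 kb. Long stretches take up much of a chromosome all the same, and those at least as long as this one made up 45.3% of the span from the first to the last peak. For HoxD the share was 13% of 1376 stretches, covering 66.7% of the span. The longest stretch that touches HoxC was matched or passed by 12% of 739 stretches on chromosome 15, and the one that touches HoxA by 11.7% of 956 on chromosome 6. Stretches of that length or more made up 72.7% and 62.7% of the 2 spans. Stretches as long as those at the 4 clusters thus made up from 45.3% to 72.7% of their chromosomes' spans.

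The flanks were then divided by distance from the cluster. Around HoxB, density was 15.0 peaks per Mb within 100 kb of the bounds, 26.7 from 100 to 250 kb, 38.0 from 250 to 500 kb and 29.0 from 500 to 1000 kb. These rest on 3, 8, 19 and 29 peaks. Around HoxC the same bands held 1, 12, 15 and 24 peaks, or 5, 40, 32.0 and 48 per Mb. The flank after HoxC ended at 468.5 kb, so the third band was cut on that side and the fourth lay before HoxC only. HoxD had 2 peaks within 100 kb, none from 100 to 500 kb and 14 beyond. In the 4 bands this was 10, 0, 0 and 14 per Mb. HoxA had 1, 3, 2 and 11 peaks, or 5, 10, 4 and 11 per Mb. The band nearest the cluster is also the shortest, and it held 3 peaks or fewer at each of the 4 loci. Its density was above that of the rest of the chromosome at HoxB (15 and 12.3 per Mb) and HoxD (10 and 7.59). It was below at HoxA (5 and 6.39) and HoxC (5 and 7.15). These differences rest on few peaks and were not tested.

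On the scale of whole megabases the clusters lay in unlike places. The 1 Mb bin with HoxC, from 102 to 103 Mb, held 37 peaks, and 3 of the 104 bins of chromosome 15 held as many or more. HoxB's bin held 22 peaks beside a chromosome median of 8.5. The bins of HoxA and HoxD held 6 and 2, with chromosome medians of 4 and 5. Of the 37 peaks in the HoxC bin, 2 fell in the cluster.

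The peaks inside the clusters were narrow. Their widths of 157, 194, 208, 260 and 286 bp had a median of 208 bp, compared with 296 bp for the 144 flank peaks and 321 bp for the whole list. No member reached the median of the list, and 7712 of its 18737 peaks (41.2%) were no wider than the widest member. Flank peaks were no wider than that in 10 of 17 cases around HoxA, 27 of 59 around HoxB, 25 of 52 around HoxC and 4 of 16 around HoxD. Over all flanks this was 66 of 144 (45.8%), near the share of the whole list, and it was lowest around HoxD (25%). The 5 cluster peaks are too few for a comparison of widths. Height was not given for any peak, so it is not known how strong these 5 were.

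**Figure D4:**
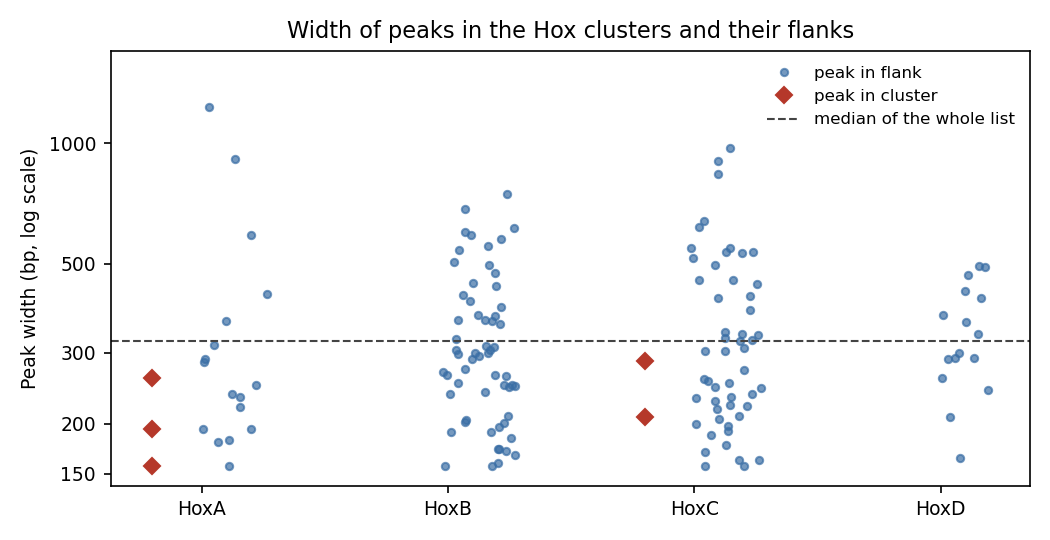
Width of each peak in bp on a log scale, for peaks inside a Hox cluster (red diamonds, 157 to 286 bp) and in its flanks (blue circles, spread sideways for legibility). The dashed line is the median of the whole list, 321 bp, and all 5 cluster peaks lie below it.

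Peaks covered little of any cluster. In HoxA they covered 611 bp, or 0.359% of the interval, beside 0.312% of its flanks and 0.233% of the rest of chromosome 6. In HoxC they covered 494 bp, or 0.329%, beside 1.26% of its flanks and 0.263% of the rest of chromosome 15. HoxB and HoxD had 0% covered, where their flanks had 0.975% and 0.270%. By covered bases HoxA was thus slightly above its flanks and HoxC well below, in the same order as by peak counts.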

How the data were processed

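The authors deposited 1 peak list in BED form (chromosome, start, end, name). Per the submitters' processing notes, the build was mm9 and the software included MACS2, Bowtie2 and CASAVA 1.4, with no settings listed. How peaks were thresholded, whether duplicates were kept and whether the input was the control: not given in the sources used here. Starts are printed counted from 1.

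Density is peaks per Mb, with the interval's own length or, for a chromosome, the span from 0 to its last peak end. Ratios carry the exact interval from Clopper-Pearson on the split of the counts. Windows were laid from position 0 without overlap. Unsequenced stretches were not masked. The counting was tested on simulated data. All cluster peaks, the nearest peaks outside, the longest empty stretch touching each cluster, the Hox genes and the 3 coding genes on each side were named by rule. The distance bands, 1 Mb bins, second-nearest peaks, shares of windows with no more peaks and the promoter search were added after the data were seen. The clusters, intervals and tests were chosen with earlier results of these data known. Tools were scipy 1.17.1, pandas 2.3.3, numpy 2.4.6 and matplotlib 3.10.9 under Python 3.11.15.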

Additional observations from a re-analysis of the deposited data

How the results depend on the processing

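Alternatives used the wider 50% or 25% of peaks, peaks merged within 1000 bp, midpoints, bounds moved by 20 kb, other flanks, other chromosome spans and shifted windows. Of 104 alternative values, 81 stayed within their limits, 17 moved, 5 no longer excluded a ratio of 1, 1 newly did so, and none reversed. The limit was the main interval for ratios and a fixed fold change for counts, coverage and window shares. Many of the 81 are HoxB or HoxD values that were 0 in both settings. Such a 0 could change only with bounds moved out, so the tally does not measure how firm the results are. Among the wider 50% and the wider 25% HoxA, HoxC and all 4 clusters held 0 peaks, because all 5 are narrower than the 321 bp that the wider 50% begins at. Their ratios to flanks and chromosomes in the wider 50% were then 0, and the upper limit for HoxB to its flanks rose from 0.698 to 1.88 at a ratio of 0. With bounds moved in by 20 kb HoxC held 0 peaks, its ratios were 0 (upper limit to flanks 0.957), its coverage was 0%, and all 4 clusters held 2 peaks and 0.0869% coverage. The joint ratio to the flanks was 0.521 (upper limit 1.25) with merging, 0.470 (1.15) with flanks of 500 kb, 0.447 (1.06) with 2 Mb, and 0.434 (1.04) with the HoxC flank not ended at the last peak. This last choice, the coverage alternatives and the shifted windows were chosen after seeing the data. HoxB's upper limit to its flanks stayed between 0.574 and 0.906 in the other 6 alternatives. No paired analysis was possible because there is 1 immunoprecipitated library, which also left no replicate to leave out. Read depth is unknown, and its part in the empty clusters was not tested.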
